A study of Mus musculus with 21 samples.

Results

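Inflammatory monocytes (IMs) taken from lymph node metastases of the LN2E1 model were compared with IMs from the bone marrow (BM) of adult FVB mice without tumors, and the comparison is described across all genes and through 30 lists of genes with a known role. The members were chosen by the sample labels and were 8 of the 21 samples of the series, with 5 libraries of tumor inflammatory monocytes (TIMs) labelled as LN metastases and 3 libraries of BM IMs labelled as healthy. LN2E1, KAL-LN2-E1 in the labels, is a single murine lung squamous cancer (LUSC) line obtained by passaging the KAL line through mice. It was injected orthotopically into the lung of adult FVB mice at 500000 cells per mouse, and no drug and no engineered allele is named for either group. TIMs from LN2E1 primary lung tumors, 5 libraries from the same line, dose and strain, served as the most alike group.

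The study asked which genes TIMs express in tumors and metastases that IMs of tumor-free marrow do not. Cells were enriched with a magnetic monocyte kit and sorted as live CD45+ CD11b+ Ly6C-high Ly6G- Siglec-F- cells. The methods describe collagenase and DNase digestion for lung tissue and none for marrow, so that tumor, site and handling cannot be told apart. Injected mice of both sexes were 8 to 15 weeks old at injection, and no age is given for the tumor-free mice. The methods refer to the libraries of a condition as technical replicates, and the sources used here do not tie a library to an animal. The p-values therefore measure the spread between these samples, which may be technical.

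Classical or inflammatory monocytes arise from dividing precursors in the marrow, leave it under the control of CCR2 and enter inflamed tissue, where they can give rise to macrophages. Their early precursors carry transcripts for the granule proteins that they share with neutrophils. In tissue they respond to interferons through STAT and IRF factors, to microbial and danger signals through NF-kB, and to low oxygen through HIF-1, and they can present antigen, recruit other leukocytes, restrain T cells and remodel matrix.

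Total counts lay between 82366078 and 94315412 in the BM IM libraries and between 80772922 and 95628109 in the lymph node TIM (LN TIM) libraries. Levels are in CPM (reads of a gene relative to the scaled library total, with TMM factors), which are not per length, so that a level is compared only within a gene. LN TIM replicate 1 stood apart from the other LN TIM libraries. It had 11047 genes with at least 10 counts against 12433 to 12828 in the others, 591 tested genes had 0 counts in it and at least 10 counts in each of the other 4 libraries, and its log2 CPM correlated with theirs at 0.872 to 0.882 while theirs correlated with each other at 0.922 to 0.937. The median SD of log2 CPM over genes was 0.430 in LN TIMs, 0.330 without replicate 1 and 0.254 in BM IMs. The ribosomal RNA gene Rn45s took 0.623% to 2.04% of the counts of BM IM libraries and 0.0183% to 0.0558% of those of LN TIM libraries, and its part in the results was not tested.

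The sort markers were checked against the gate. Ptprc, which encodes CD45, was at 638, 616 and 654 CPM in BM IMs and at 1822, 2225, 2384, 3012 and 2305 CPM in LN TIMs. Itgam, which encodes CD11b, was at 258, 306 and 492 CPM and at 804, 1053, 1187, 1363 and 1223 CPM. Both were higher in every TIM library than in any BM IM library. The Ly6C gene Ly6c2 went the other way, from 3600.0, 3035 and 2434 CPM in BM IMs to 1676, 1495, 1466, 974 and 1075 CPM in LN TIMs, with no overlap (log2 fold change -1.17 ± 0.20 (SE), adjusted p = 0.00116). Each adjusted p here and in what follows comes from the quasi-likelihood test of edgeR, after Benjamini-Hochberg, over all genes tested. Each SE was worked back from that test, as the absolute log2 change over the square root of the F statistic. It was not estimated separately. Ly6c1, whose sequence is close to that of Ly6c2 so that reads could be split between them, also fell (log2 fold change -1.09 ± 0.24 (SE), adjusted p = 0.00562). The symbol of Ly6G was not analysed here, and Siglec5, the symbol under which Siglec-F is listed, was at 3.92, 2.55 and 7.89 CPM in BM IMs and at 0, 0.0132, 0, 0.813 and 0.546 CPM in LN TIMs and did not pass (adjusted p = 0.0691). It did pass with DESeq2 (0.0246), with all 5 groups in 1 fit (0.00425) and without LN TIM replicate 1 (0.0417). Ccr2, the receptor that brings monocytes out of the marrow, was at 705, 733 and 704 CPM in BM IMs and at 1100.4, 864, 745, 1075 and 877 CPM in LN TIMs and did not pass the test (adjusted p = 0.0568), although it did with DESeq2 (0.0235), with all 5 groups in 1 fit (0.0182) and without LN TIM replicate 3 (0.0176).

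A gene was said to rise or fall at an adjusted p under 0.05. The term differentially expressed gene (DEG) was kept for genes at an adjusted p under 0.0001 that also changed by more than 1 log2 unit. Of 13273 genes tested, 2685 rose (20.2%) and 2284 fell (17.2%) in LN TIMs relative to BM IMs, and the median log2 fold change of all genes tested was -0.04. The DEGs were 532 higher genes (4.01% of those tested) and 226 lower genes (1.7%). None of the 758 DEGs overlapped between the groups, whereas 5691 of all 13273 tested genes did not overlap. The median log2 fold change was 2.91 for the higher and -2.59 for the lower DEGs, and 25 higher and 24 lower DEGs had changed by more than 8 log2 units. Without LN TIM replicate 1, the DEGs were 977 (632 higher and 345 lower), and without any 1 of the other 7 libraries they were between 307 (without BM IM replicate 2) and 463 (without LN TIM replicate 3).

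The 30 lists held 523 distinct genes with a symbol in the table, of which 513 passed the filter on low counts. Bpi, Egr3, Il23a, Csf3, Ifnb1, H2-Q7, Ereg, Fgf2 and Atp6v0d2 were among the 10 that did not pass it, and Spi1 and Mcemp1 were not analysed here. The lists covered 136 of the 532 higher DEGs (25.6%) and 29 of the 226 lower DEGs (12.8%). The lists with the highest medians were those of the responses to interferon gamma and to type I interferon, and those with the lowest medians were mitosis genes and the granule genes of precursors.

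**Figure D1:**
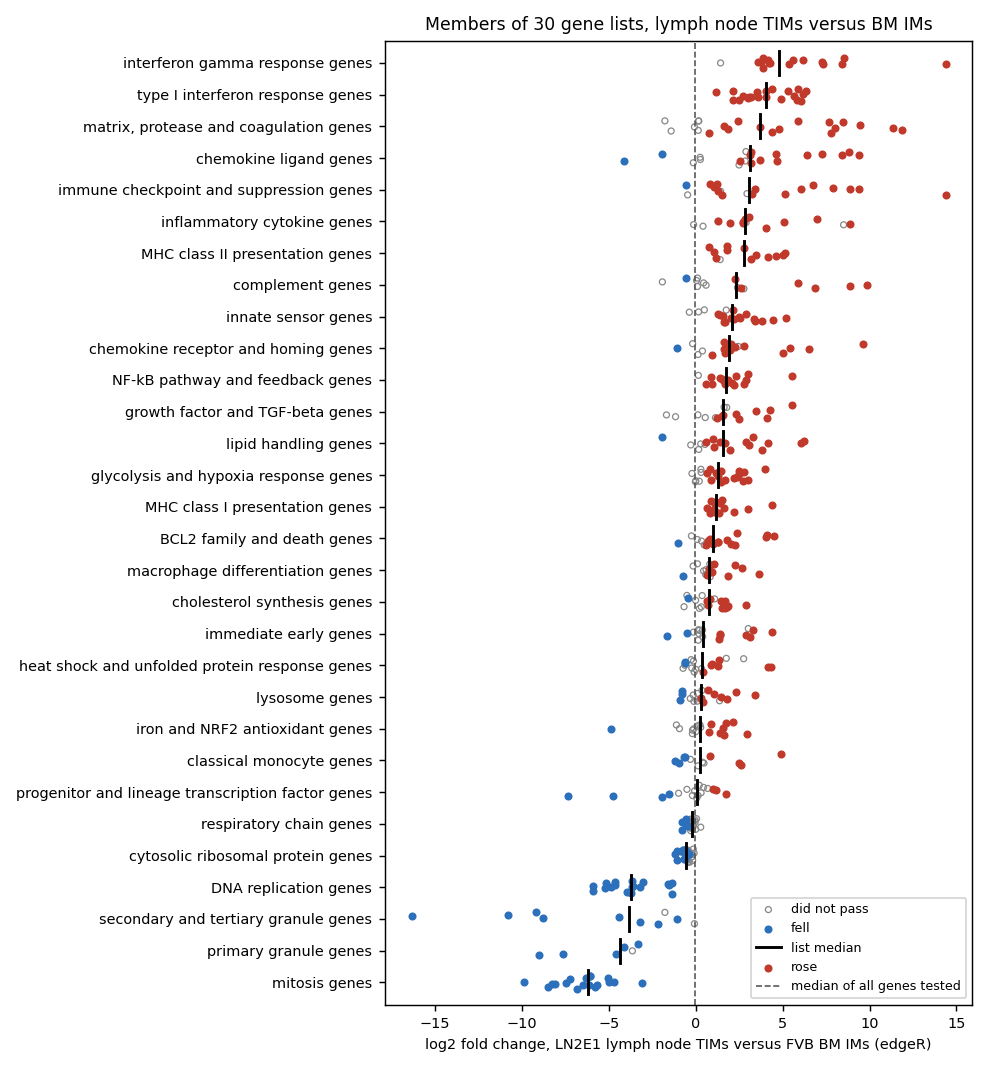
Log2 fold change of each tested member of 30 gene lists in LN TIMs (n = 5) relative to BM IMs (n = 3), with red points for members that rose, blue points for members that fell, open grey points for members that did not pass the test, a black bar at each list's median and a dashed line at the median of all genes tested (-0.04). The list medians run from 4.82 for interferon gamma response genes to -6.23 for mitosis genes, and members with no or almost no counts in 1 group are drawn at fitted values that depend on the prior count.

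Genes of classical monocytes split. Of 12 members, 4 rose, 4 fell and 4 did not pass the test, and the list median was 0.26. Fcgr1, the high-affinity Fc receptor, was at 19.4, 19.1 and 8.41 CPM in BM IMs and at 599.9, 468, 309.9, 425 and 492 CPM in LN TIMs, with every TIM library above every BM IM library (log2 fold change 4.88 ± 0.35 (SE), adjusted p = 5.46e-06). Plac8 (log2 fold change 2.60 ± 0.22 (SE), adjusted p = 1.57e-05) and the matrix proteoglycan gene Vcan (log2 fold change 2.48 ± 0.22 (SE), adjusted p = 2.22e-05) also rose. The coagulation factor gene F13a1 (log2 fold change -0.99 ± 0.18 (SE), adjusted p = 0.00199) and the lysozyme gene Lyz2 (log2 fold change -0.65 ± 0.16 (SE), adjusted p = 0.0115) fell. Lyz2 took the most reads of any gene in LN TIMs, at 43959, 30812, 28978, 30556 and 37106 CPM against 62852, 53097 and 45536 CPM in BM IMs. Without BM IM replicate 1 the fall of Lyz2 did not pass, at an adjusted p of 0.0611.

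Markers of macrophage differentiation rose in 8 of 16 members and fell in 1, with a median of 0.77. Csf1r, the receptor for the macrophage growth factor M-CSF, was at 625, 749.7 and 997 CPM in BM IMs and at 1779, 2572, 3257, 3327 and 3362 CPM in LN TIMs (log2 fold change 1.85 ± 0.25 (SE), adjusted p = 0.000285). The fractalkine receptor gene Cx3cr1 (log2 fold change 0.94 ± 0.16 (SE), adjusted p = 0.00144) and the lipoprotein gene Apoe (log2 fold change 1.06 ± 0.18 (SE), adjusted p = 0.00153) rose in every TIM library above the BM IM range. Several genes used to recognise mature tissue macrophages were among the 7 that did not pass. Mrc1 was at 6.81, 16.8 and 10.9 CPM in BM IMs and at 29.9, 16.03, 3.17, 19.6 and 16.5 CPM in LN TIMs, and the complement gene C1qa at 9.10, 14.4 and 20.9 CPM and 10.2, 24.03, 33.97, 10.4 and 33.1 CPM, each with overlap between the groups. Mertk, a receptor for the uptake of dying cells, also overlapped, at 4.16, 6.56 and 6.16 CPM and 15.9, 11.1, 4.56, 10.3 and 7.44 CPM. The member that fell was Spp1, which encodes osteopontin (log2 fold change -0.74 ± 0.22 (SE), adjusted p = 0.0212), and it did not pass without BM IM replicate 1, without BM IM replicate 2 or without LN TIM replicate 5.

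Most transcripts of the granule proteins of myeloid precursors fell in LN TIMs. Of 6 tested primary granule genes 5 fell, and of 10 tested secondary and tertiary granule genes 8 fell, with none that rose and medians of -4.34 and -3.82. Elane, which encodes neutrophil elastase, was at 499, 429 and 524 CPM in BM IMs and at 0.0121, 1.07, 0.998, 2.49 and 0.154 CPM in LN TIMs (log2 fold change -9.00 ± 0.96 (SE), adjusted p = 6.66e-05). Prtn3, the proteinase 3 gene, went from 314, 288 and 251 CPM to 28.5, 15.7, 11.1, 11.8 and 15.03 CPM (log2 fold change -4.11 ± 0.29 (SE), adjusted p = 5.01e-06). Camp, the cathelicidin gene, was at 483, 429 and 672 CPM in BM IMs, while 1 LN TIM library held 2 counts (0.0242 CPM) and the other 4 held none (adjusted p = 4.35e-08). The fall was not to 0 throughout. Mmp8, the neutrophil collagenase gene, was at 443, 476 and 391 CPM in BM IMs and at 629, 414, 214, 403 and 407 CPM in LN TIMs and did not pass (adjusted p = 0.855). Cd177, a neutrophil surface protein gene, was at 652, 630.2 and 741 CPM and still at 385, 291, 218, 326 and 407 CPM (log2 fold change -1.05 ± 0.19 (SE), adjusted p = 0.00166). LN TIM replicate 1 was the highest TIM library for Mpo, the myeloperoxidase gene, at 31.8 CPM against at most 1.94 CPM in the others, and the lowest for Elane. In bulk RNA, fewer precursors among the sorted cells and less of these transcripts per cell cannot be told apart.

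Cell cycle genes fell without exception. All 18 DNA replication genes and all 18 mitosis genes fell, at medians of -3.71 and -6.23, and 12 and 8 of them were DEGs. Rrm2, which makes deoxyribonucleotides for replication, was at 316, 376 and 293 CPM in BM IMs and at 10.4, 2.89, 4.75, 2.61 and 6.45 CPM in LN TIMs (log2 fold change -5.92 ± 0.44 (SE), adjusted p = 6.35e-06). Mcm5, a subunit of the replicative helicase, was at 331, 392.2 and 332 CPM and at 48.4, 16.6, 27.1, 28.5 and 16.7 CPM (log2 fold change -3.68 ± 0.33 (SE), adjusted p = 2.22e-05). Ccnb2, the cyclin B2 gene, was at 273, 291 and 203 CPM and at 6.88, 5.47, 4.21, 1.65 and 0.808 CPM (log2 fold change -6.07 ± 0.61 (SE), adjusted p = 4.39e-05). No replication or mitosis gene overlapped between the groups, whereas 5691 of all 13273 genes tested did not overlap. Histone genes, chosen after their values were seen, moved with them: of 59 tested genes with a Hist symbol 55 fell and none rose, with a median of -3.87, and their summed level was 1396 to 2089 CPM in BM IMs and 156.0 to 183.0 CPM in LN TIMs. The histone genes are near copies of each other and many lie close together, so that single members are uncertain.

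The cell cycle promoters were read for the CHR element, the letters TTTGAA on either strand, which lies in promoters of genes expressed in mitosis. RefSeq promoters (GRCm38.p6, 250 bases before to 50 after the start) matched 16 of the 18 mitosis genes. The CHR letters were in 68.8% of their promoters and in 17.89% of all 32851 promoters. The E2F letters TTTGGCGC were in 15% of the promoters of DNA replication genes (3 of 20) and in 0.51% of all. Among the other lists the highest E2F share was 12.5%, in MHC class I presentation genes (2 of 16 promoters). In the other lists the CHR share ran from 0% (among them heat shock and unfolded protein response genes) to 42.9% (primary granule genes, 3 of 7 promoters). The stretches below are shown because they belong to mitosis genes with a large fall, and run 5′ to 3′ on the gene's strand, with the CHR letters or their reverse complement in capitals. The Cdk1 stretch is on the - strand (chr10:69352948-69353013), and Cdk1 drives entry into mitosis (log2 fold change -6.48 ± 0.40 (SE), adjusted p = 1.94e-06). The Ube2c stretch is on the + strand (chr2:164769870-164769928), and Ube2c marks cyclins for degradation (log2 fold change -7.46 ± 0.57 (SE), adjusted p = 7.58e-06).
Cdk1: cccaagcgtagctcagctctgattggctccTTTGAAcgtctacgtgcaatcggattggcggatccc
Ube2c: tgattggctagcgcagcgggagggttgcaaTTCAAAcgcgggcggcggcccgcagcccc
The Cdk1 promoter held 2 copies, 1 of them in this stretch, and a match describes the letters and not a bound site.

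Transcription factors of progenitors and lineages moved less as a list: of 17 members 3 rose, 4 fell and 10 did not pass, with a median of 0.06. These shares were near those of all genes tested, of which 20.2% rose and 17.2% fell. Irf8, which directs monocyte development, was at 369, 347 and 415 CPM in BM IMs and at 873, 796, 991, 849 and 735 CPM in LN TIMs (log2 fold change 1.17 ± 0.13 (SE), adjusted p = 9.74e-05). Cebpd, a factor of myeloid differentiation, was at 240.0, 192 and 208 CPM and at 69.8, 74.1, 64.1, 80.4 and 73.6 CPM (log2 fold change -1.56 ± 0.12 (SE), adjusted p = 7.82e-06). The progenitor factor gene Myb was at 20.6, 20.4 and 20.5 CPM in BM IMs and at 0.206, 0.0927, 3.15, 0.172 and 0.0594 CPM in LN TIMs (log2 fold change -4.78 ± 1.20 (SE), adjusted p = 0.0107).

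Every one of the 21 type I interferon response genes rose, 18 as DEGs, with a median of 4.03. Isg15, a ubiquitin-like modifier, was at 5.69, 5.86 and 2.83 CPM in BM IMs and at 290.4, 340.3, 215, 289 and 287 CPM in LN TIMs (log2 fold change 5.90 ± 0.31 (SE), adjusted p = 8.14e-07). Ifit1, which binds viral RNA, was at 3.93, 3.37 and 1.41 CPM and at 202, 218, 116, 289.9 and 199 CPM (log2 fold change 6.15 ± 0.45 (SE), adjusted p = 6.04e-06), and Rsad2, which encodes the antiviral protein viperin, at 3.68, 2.78 and 5.91 CPM and 251, 210.3, 191, 294 and 251 CPM (log2 fold change 5.85 ± 0.32 (SE), adjusted p = 9.93e-07). The lowest TIM library of each of the 21 genes lay above the highest BM IM library. Of all 13273 genes tested, 5691 did not overlap between the groups in 1 direction or the other. Irf7 (log2 fold change 3.57 ± 0.20 (SE), adjusted p = 1.15e-06) and Stat2 (log2 fold change 2.50 ± 0.24 (SE), adjusted p = 3.23e-05), which carry the interferon signal to the nucleus, rose with fold changes under the list median. Ifnb1, the interferon beta gene itself, had 0 counts in all 8 libraries.

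Interferon gamma response genes rose in 15 of 16 members, each of them a DEG, with a median of 4.82, and Ido1 was the member that did not pass. Gbp2, a guanylate-binding GTPase, was at 32.8, 21.7 and 9.89 CPM in BM IMs and at 1754, 1269.9, 1076, 1789 and 1779 CPM in LN TIMs (log2 fold change 6.16 ± 0.44 (SE), adjusted p = 5.14e-06). Gbp4 was at 1.41, 1.08 and 0.465 CPM and at 348, 361, 206, 484 and 389 CPM (log2 fold change 8.52 ± 0.49 (SE), adjusted p = 1.4e-06), and the immunity-related GTPase gene Iigp1 at 0.932, 0.418 and 0.197 CPM and 198, 182, 109, 218 and 175 CPM (log2 fold change 8.44 ± 0.55 (SE), adjusted p = 3.06e-06). Gbp genes share sequence with each other, so that reads may be split among them. Nos2, the inducible nitric oxide synthase gene, had 0 counts in all 3 BM IM libraries and 17.2, 45.5, 14.7, 36.5 and 37.9 CPM in LN TIMs, which is at least 995-fold higher when set against 3 counts per BM IM library (adjusted p = 1.71e-05). Irf1 (log2 fold change 3.60 ± 0.21 (SE), adjusted p = 1.57e-06) and the feedback inhibitor gene Socs1 (log2 fold change 5.38 ± 0.23 (SE), adjusted p = 3.03e-07) also rose.

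The interferon promoters were searched for the interferon-stimulated response element (ISRE), here GAAA and again GAAA with any 2 bases between them, on either strand. Of 21 type I genes 15 matched a RefSeq promoter, and the ISRE letters were in 56.2% of their promoters, in 66.7% of those of interferon gamma response genes, in 25.0% of those of MHC class I presentation genes and in 3.44% of all promoters. The GAS letters TTCNNNGAA were in 41.7% of the interferon gamma response promoters and in 8.3% of all, and matches of the ISRE and GAS letters shared a base in 0.073% of all promoters. The stretches below belong to members with large rises, and each first ISRE match begins between 120 and 75 bases before the start site. They are shown for the placing of the ISRE letters or their reverse complement, which stand in capitals. They run 5′ to 3′ on the gene's strand at chr19:34640755-34640824 (Ifit1, +), chr4:156200857-156200926 (Isg15, -), chr5:120777695-120777764 (Oas3, -) and chr12:26456533-26456602 (Rsad2, -) of GRCm38.p6.
Ifit1: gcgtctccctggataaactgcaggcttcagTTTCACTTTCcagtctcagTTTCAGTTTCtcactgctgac
Isg15: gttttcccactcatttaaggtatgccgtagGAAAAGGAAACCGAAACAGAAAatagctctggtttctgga
Oas3: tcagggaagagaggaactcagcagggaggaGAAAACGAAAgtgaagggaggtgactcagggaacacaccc
Rsad2: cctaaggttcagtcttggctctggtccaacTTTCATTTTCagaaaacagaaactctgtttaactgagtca
In Isg15 3 copies overlapped in 1 run, and Ifit1 held 2 copies.

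**Figure D2:**
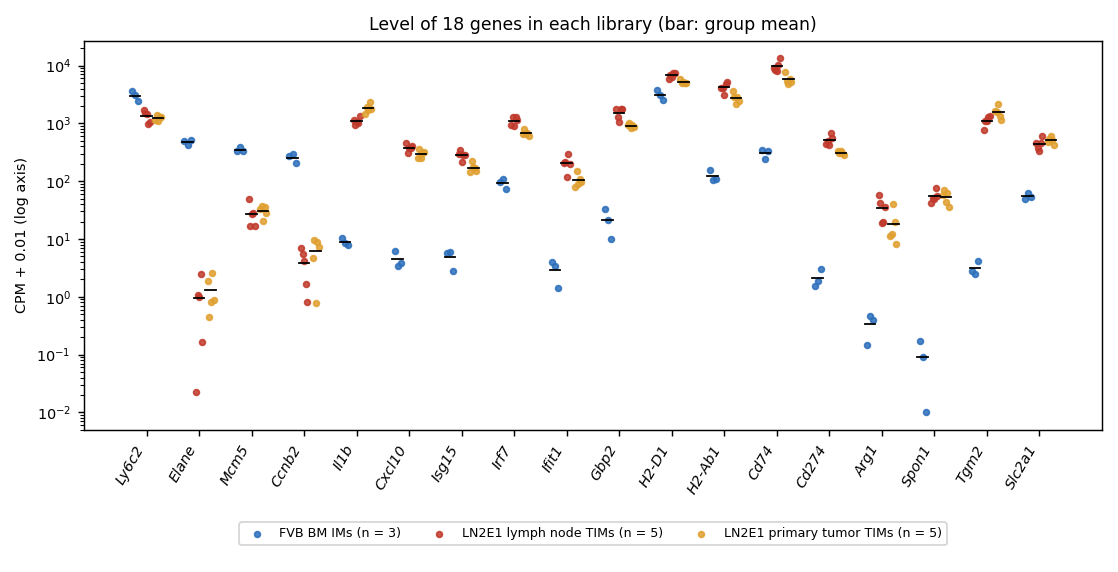
Level of 18 genes (CPM plus 0.01, log axis) in each library of BM IMs (n = 3, blue), LN TIMs (n = 5, red) and LN2E1 primary tumor TIMs (n = 5, yellow), with a bar at each group mean. Il1b lies at 7.99 to 10.2 CPM in BM IMs and at 923 to 1322 CPM in LN TIMs, and Elane at 429 to 524 CPM in BM IMs and at no more than 2.49 CPM in LN TIMs.

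Antigen presentation genes rose. All 15 tested MHC class I presentation genes rose, with 5 DEGs and a median of 1.15, and 12 of 13 MHC class II presentation genes rose, with 7 DEGs and a median of 2.76, H2-Oa being the exception. H2-D1, a class I heavy chain, was at 3746, 3093 and 2549 CPM in BM IMs and at 5779, 6959.8, 6238, 7576 and 7576 CPM in LN TIMs (log2 fold change 1.13 ± 0.15 (SE), adjusted p = 0.000309), and reads of H2 genes may be split among near copies. Nlrc5, which drives class I genes, rose more (log2 fold change 4.39 ± 0.29 (SE), adjusted p = 3.09e-06), and Tap1, a peptide transporter subunit, was at 103, 92.7 and 80.6 CPM and 554, 697, 679, 941 and 899 CPM (log2 fold change 3.03 ± 0.20 (SE), adjusted p = 3.38e-06). Cd74, the class II invariant chain, was at 347, 237 and 333 CPM in BM IMs and at 9003, 8523, 7985, 10250.0 and 13275 CPM in LN TIMs (log2 fold change 5.00 ± 0.24 (SE), adjusted p = 5.86e-07). The class II gene H2-Ab1 was at 155, 106 and 108 CPM and at 4070.2, 4071, 3098, 4803 and 5148 CPM (log2 fold change 5.11 ± 0.24 (SE), adjusted p = 4.8e-07), and Ciita, the factor that switches class II genes on, at 2.24, 2.56 and 5.82 CPM and 70.9, 48.7, 58.2, 66.2 and 74.9 CPM (log2 fold change 4.16 ± 0.38 (SE), adjusted p = 2.28e-05). The costimulatory genes Cd86 (log2 fold change 2.76 ± 0.20 (SE), adjusted p = 6.02e-06) and Cd80 (log2 fold change 1.82 ± 0.19 (SE), adjusted p = 6.66e-05) rose as well. Markers of other antigen-presenting cells were read beside these genes. Of 12 conventional dendritic cell markers 5 rose and none fell, with a median of 1.87, and their summed level was 114 to 126 CPM in BM IMs, 103 CPM in LN TIM replicate 5 and 164 to 245 CPM in the other 4 LN TIM libraries. All 8 plasmacytoid dendritic cell (pDC) markers rose, from a sum of 48.1 to 49.7 CPM to one of 270.4 to 1727 CPM. B cell markers summed to 31.0 to 43.5 CPM in BM IMs and to 26.3 to 59.8 CPM in LN TIMs. Most of this was Cd79b and Cd22. Cd79b was at 32.8, 40.4 and 29.1 CPM in BM IMs and at 26.3, 23.8, 20.8, 16.6 and 12.5 CPM in LN TIMs (log2 fold change -0.76 ± 0.25 (SE), adjusted p = 0.0359), and it passed in 3 of 8 fits made without 1 library each. Cd22 was at 1.70, 2.15 and 1.44 CPM in BM IMs and at 0.0121, 9.75, 36.4, 13.6 and 25.7 CPM in LN TIMs (adjusted p = 0.088), while Ms4a1 and Pax5 were at most 0.0662 CPM in any LN TIM library. The part of these cells in the rise of the presentation genes was not tested.

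In the NF-kB pathway 15 of 16 genes rose, 7 as DEGs, with a median of 1.76. Traf1, a signalling adaptor, was at 1.02, 0.958 and 1.94 CPM in BM IMs and at 41.1, 57.01, 70.6, 73.5 and 59.98 CPM in LN TIMs (log2 fold change 5.52 ± 0.36 (SE), adjusted p = 2.89e-06). The adhesion molecule gene Icam1 was at 48.8, 47.9 and 40.5 CPM and at 317, 348, 316, 420.0 and 423 CPM (log2 fold change 3.00 ± 0.16 (SE), adjusted p = 8.64e-07), and Tnfaip3, which encodes the feedback inhibitor A20, at 54.7, 36.1 and 77.1 CPM and 376, 376, 470.3, 458 and 398 CPM (log2 fold change 2.89 ± 0.25 (SE), adjusted p = 1.71e-05). Rela, which encodes the p65 subunit, was the member that did not pass (log2 fold change 0.15, adjusted p = 0.417). The NF-kB letters GGGANTTCC were in 33.3% of the promoters of the 12 members with a RefSeq promoter, in 15.4% of those of chemokine ligands, in none of those of the cytokine list and in 1.68% of all promoters. The Tnfaip3 stretch, on the - strand at chr10:19015411-19015452, is shown because its reverse-complement match, in capitals, begins 12 bases before the start site.
Tnfaip3: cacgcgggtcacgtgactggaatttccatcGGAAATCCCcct

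Inflammatory cytokine genes rose in 10 of 15 tested members and none fell (median 2.82). Il1b, the interleukin 1 beta gene, was at 10.2, 8.41 and 7.99 CPM in BM IMs and at 1139, 923, 1058, 1026 and 1322 CPM in LN TIMs (log2 fold change 6.95 ± 0.20 (SE), adjusted p = 5.07e-08). Il1rn, its receptor antagonist, was at 15.3, 17.8 and 15.7 CPM and at 664, 502, 295, 647 and 615 CPM (log2 fold change 5.06 ± 0.30 (SE), adjusted p = 1.69e-06). Tnf was at 6.57, 6.23 and 5.60 CPM and at 44.2, 44.5, 34.9, 45.9 and 47.4 CPM (log2 fold change 2.82 ± 0.18 (SE), adjusted p = 2.68e-06), and Il18 rose (log2 fold change 2.73 ± 0.20 (SE), adjusted p = 5e-06). Ligand and antagonist of the interleukin 1 receptor were thus both higher in every TIM library. Osm, the oncostatin M gene, was at 403, 375 and 400.3 CPM and at 394, 304, 232, 403 and 474 CPM with overlap (adjusted p = 0.683), and the interleukin 12 subunit gene Il12a did not pass (adjusted p = 0.145). An exon of Il1bos lies on the strand opposite to Il1b, and the libraries were not stranded.

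Chemokine ligand genes rose in 12 of 20 members and fell in 2, with a median of 3.15. The CXCR3 ligands rose together: Cxcl9 was at 1.39, 0.927 and 0.465 CPM in BM IMs and at 158, 129, 138, 159.8 and 135 CPM in LN TIMs (log2 fold change 7.29 ± 0.37 (SE), adjusted p = 7.42e-07). Cxcl10 was at 6.24, 3.43 and 3.88 CPM and at 449.9, 308, 369, 369.8 and 402 CPM (log2 fold change 6.40 ± 0.27 (SE), adjusted p = 3.09e-07), and Cxcl11 at 0.148, 0.326 and 0 CPM and 112, 108, 91.97, 102 and 113 CPM (log2 fold change 9.41 ± 0.75 (SE), adjusted p = 1.05e-05). Among ligands of CCR2, Ccl2 was at 99.5, 29.6 and 48.1 CPM and at 981, 549, 298, 340.2 and 467 CPM (log2 fold change 3.16 ± 0.52 (SE), adjusted p = 0.00104), and Ccl7 at 0.205, 0.112 and 0.125 CPM and 129.9, 88.8, 24.8, 34.8 and 56.96 CPM (log2 fold change 8.83 ± 0.76 (SE), adjusted p = 1.76e-05). The macrophage inflammatory protein genes went in opposite directions, since Ccl4 was at 57.1, 40.6 and 47.7 CPM and 359, 317, 249.7, 248 and 251 CPM (log2 fold change 2.56 ± 0.19 (SE), adjusted p = 6.57e-06) while Ccl3 was at 424, 225 and 263 CPM and 101, 91.97, 77.9, 59.2 and 57.5 CPM (log2 fold change -1.97 ± 0.25 (SE), adjusted p = 0.000195). The other member that fell was the platelet factor gene Pf4 (log2 fold change -4.16 ± 0.93 (SE), adjusted p = 0.0059). Ccl6 and Ccl9 did not pass, at log2 fold changes of 0.25 and -0.14.

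Of 18 chemokine receptor and homing genes 13 rose and 1, Cxcr4, fell (log2 fold change -1.10 ± 0.29 (SE), adjusted p = 0.0133), with a median of 1.92, and without BM IM replicate 1 none fell. Ccr1, a receptor for inflammatory chemokines, was at 150.3, 198 and 161 CPM in BM IMs and at 741, 558, 407, 673 and 713 CPM in LN TIMs (log2 fold change 1.86 ± 0.21 (SE), adjusted p = 9.3e-05). Itgax, which encodes CD11c, was at 0.330, 1.38 and 0.858 CPM and at 59.8, 62.2, 131, 75.7 and 62.1 CPM (log2 fold change 6.51 ± 0.55 (SE), adjusted p = 1.57e-05). The integrin genes Itgal (log2 fold change 2.80 ± 0.30 (SE), adjusted p = 6.33e-05) and Itga4 (log2 fold change 2.03 ± 0.19 (SE), adjusted p = 3.18e-05) rose.

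Innate sensors rose in 16 of 20 members and none fell (median 2.09). Trem1, which amplifies Toll-like receptor signals, was at 55.5, 59.1 and 79.7 CPM in BM IMs and at 1179, 1220.1, 1336, 1647 and 1789.6 CPM in LN TIMs (log2 fold change 4.47 ± 0.23 (SE), adjusted p = 6.93e-07). The C-type lectin gene Clec4n was at 5.83, 5.71 and 8.67 CPM and at 349.9, 229, 192, 209 and 274 CPM (log2 fold change 5.22 ± 0.29 (SE), adjusted p = 1.16e-06), and the lipopolysaccharide coreceptor gene Cd14 at 663, 563 and 540.4 CPM and 4655, 4177, 2927, 4729 and 5671 CPM (log2 fold change 2.91 ± 0.21 (SE), adjusted p = 5.92e-06). Nlrp3, the inflammasome sensor, did not pass (log2 fold change -0.37, adjusted p = 0.332).

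Complement genes rose in 6 of 16 members and fell in 1, Cfp, with a median of 2.34. Cfb, complement factor B, was at 6.76, 6.92 and 8.42 CPM in BM IMs and at 747, 935, 548, 1106 and 922 CPM in LN TIMs (log2 fold change 6.85 ± 0.29 (SE), adjusted p = 3.03e-07). C4b was at 0, 0.316 and 0.0357 CPM and at 68.8, 121, 90.04, 143 and 128 CPM (log2 fold change 9.85 ± 0.86 (SE), adjusted p = 1.82e-05). The receptor genes C3ar1 (log2 fold change 5.89 ± 0.36 (SE), adjusted p = 1.9e-06) and C5ar1 (log2 fold change 2.62 ± 0.20 (SE), adjusted p = 8.06e-06) rose, while C3 itself was at 329.8, 380.1 and 644 CPM and 396, 365, 563, 460.0 and 549 CPM with overlap (adjusted p = 0.907). The fall of Cfp, the properdin gene (log2 fold change -0.58 ± 0.17 (SE), adjusted p = 0.0235), did not pass without BM IM replicate 1 or without BM IM replicate 2, at adjusted p values of 0.0855 and 0.101.

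Immediate early genes, which respond within minutes to stimulation and to cell handling, rose in 7 of 17 tested members and fell in 2, with a median of 0.40. Nr4a2, an orphan nuclear receptor, was at 6.11, 5.94 and 5.96 CPM in BM IMs and at 179, 105, 87.5, 106 and 150.2 CPM in LN TIMs (log2 fold change 4.38 ± 0.28 (SE), adjusted p = 2.68e-06). Fos, an AP-1 subunit, was at 7300.0, 4654 and 5598 CPM and at 1995, 1918, 1477, 1846 and 2026 CPM (log2 fold change -1.66 ± 0.16 (SE), adjusted p = 3.24e-05), and Junb, its partner, at 1169.6, 996 and 1328 CPM and 3218, 2986, 2264, 3473 and 3621 CPM (log2 fold change 1.42 ± 0.17 (SE), adjusted p = 0.00017). Tissue digestion and the other differences between the groups cannot be told apart in these values.

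Immune checkpoint and suppression genes rose in 14 of 18 members and fell in 1, with a median of 3.08, and without LN TIM replicate 1 they fell in 2. Cd274, which encodes the checkpoint ligand PD-L1, was at 1.52, 1.83 and 3.04 CPM in BM IMs and at 436, 495, 428, 668 and 559 CPM in LN TIMs (log2 fold change 7.91 ± 0.34 (SE), adjusted p = 3.09e-07). Arg1, the arginase that depletes arginine, was at 0.136, 0.459 and 0.384 CPM and at 58.2, 41.2, 18.9, 19.7 and 36.2 CPM (log2 fold change 6.72 ± 0.62 (SE), adjusted p = 2.64e-05). Havcr2, the TIM-3 gene, was at 2.64, 3.44 and 3.62 CPM and at 201, 207, 167, 286 and 235 CPM (log2 fold change 6.08 ± 0.25 (SE), adjusted p = 2.97e-07). Cd274, Arg1 and Havcr2 did not overlap between the groups, which was so for every DEG. Of the 18 members 15 did not overlap, against 5691 of all 13273 genes tested. The member that fell was 4632428N05Rik, the symbol of the VISTA gene here (log2 fold change -0.59 ± 0.10 (SE), adjusted p = 0.00171). Lgals3, the galectin 3 gene, was at 3174, 2822 and 2326 CPM and 2603, 2192, 1445, 1670.0 and 2100.0 CPM and did not pass (adjusted p = 0.0779), though without LN TIM replicate 1 it did, at an adjusted p of 0.0192.

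Matrix, protease and coagulation genes rose in 15 of 21 tested members and none fell (median 3.67). Spon1, the F-spondin gene that the study followed up, was at 0.159, 0.0815 and 0 CPM in BM IMs and at 41.5, 51.6, 49.9, 77.6 and 54.4 CPM in LN TIMs (log2 fold change 9.47 ± 0.72 (SE), adjusted p = 7.64e-06). Tgm2, a transglutaminase that cross-links matrix, was at 2.80, 2.42 and 4.13 CPM and at 753, 1086, 1088, 1263 and 1358 CPM (log2 fold change 8.47 ± 0.33 (SE), adjusted p = 2.62e-07). Mmp14, a membrane-bound matrix metalloproteinase, was at 0.193, 0.0306 and 0.634 CPM and at 75.1, 69.7, 47.9, 67.3 and 68.98 CPM (log2 fold change 7.80 ± 0.76 (SE), adjusted p = 3.64e-05), and the syndecan gene Sdc4 at 0.0227, 0.204 and 0.679 CPM and 77.1, 85.8, 94.1, 69.2 and 84.3 CPM (log2 fold change 8.03 ± 0.76 (SE), adjusted p = 3.18e-05). Thbs1, the thrombospondin 1 gene, was at 222, 415 and 894 CPM and at 2051, 2238, 2710.4, 3415 and 3632 CPM (log2 fold change 2.45 ± 0.43 (SE), adjusted p = 0.00152). Fn1, the fibronectin gene, was at 823, 888 and 1534 CPM and 1223, 814, 1370.0, 1218 and 1498 CPM with overlap (adjusted p = 0.624). Summed markers of fibroblasts and lymph node stroma were 5.25 to 9.29 CPM in BM IMs and 24.3 to 112 CPM in LN TIMs, Ccl21a and Madcam1 were at 0 in all LN TIM libraries, and the part of these cells in the matrix genes was not tested.

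Growth factor and TGF-beta genes rose in 9 of 16 tested members and none fell (median 1.59). Vegfa, the angiogenic growth factor gene, was at 10.4, 8.16 and 15.3 CPM in BM IMs and at 162, 196, 119, 193 and 282 CPM in LN TIMs (log2 fold change 4.07 ± 0.34 (SE), adjusted p = 1.43e-05). The receptor gene Tgfbr2 was at 25.1, 26.2 and 42.6 CPM and at 111, 155, 198, 172 and 149.7 CPM (log2 fold change 2.32 ± 0.25 (SE), adjusted p = 7.74e-05), its partner gene Tgfbr1 at 15.8, 14.3 and 32.1 CPM and 85.5, 113, 127, 155 and 110.1 CPM (log2 fold change 2.50 ± 0.32 (SE), adjusted p = 0.00021), and the induced matrix gene Tgfbi rose (log2 fold change 1.24 ± 0.14 (SE), adjusted p = 8.08e-05).

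Glycolysis and hypoxia response genes rose in 17 of 23 members and none fell (median 1.30). Slc2a1, the glucose transporter GLUT1, was at 49.6, 62.1 and 52.7 CPM in BM IMs and at 449, 381, 334, 450.4 and 592 CPM in LN TIMs (log2 fold change 3.01 ± 0.20 (SE), adjusted p = 3.58e-06). Slc16a3, which exports lactate, was at 15.1, 14.2 and 31.4 CPM and at 222, 299, 323, 341 and 457 CPM (log2 fold change 4.01 ± 0.36 (SE), adjusted p = 2.23e-05), and the hypoxia-induced gene Bnip3 at 25.4, 24.7 and 22.5 CPM and 212, 188, 111, 149 and 160.0 CPM (log2 fold change 2.76 ± 0.22 (SE), adjusted p = 1e-05). Of the enzymes of the pathway's later steps, Gapdh (log2 fold change 0.31) and Pgam1 (log2 fold change -0.02) did not pass and Ldha rose (log2 fold change 1.18 ± 0.13 (SE), adjusted p = 8.25e-05). In the respiratory chain 6 of 25 genes fell, against 17.2% of all genes tested, none rose and the median was -0.23. With 1 library left out, 4 to 8 of them fell. The ATP synthase gene Atp5a1 was at 1092, 1093 and 966 CPM in BM IMs and at 465, 598, 648, 639.9 and 673 CPM in LN TIMs (log2 fold change -0.80 ± 0.13 (SE), adjusted p = 0.000992).

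Ribosomal protein genes fell in 12 of 30 members and none rose, with a median of -0.55. Rplp1, a protein of the ribosomal stalk, fell (log2 fold change -1.08 ± 0.20 (SE), adjusted p = 0.00203). The count moved with single libraries, to 24 without LN TIM replicate 1 and to 6 without BM IM replicate 1 or without BM IM replicate 2. The level in LN TIM replicate 1 was the highest of the TIM libraries for Rpl4, at 473, 365, 399, 347 and 379 CPM against 633, 603 and 511 CPM in BM IMs. Ribosomal protein genes have many processed copies in the genome, so that their counts are uncertain.

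Cholesterol synthesis genes rose in 11 of 20 members and fell in 1, Mvd, with a median of 0.76, and lipid handling genes rose in 13 of 18 and fell in 1, with a median of 1.54. Cd36, a scavenger receptor for lipoproteins and fatty acids, was at 4.11, 6.09 and 4.18 CPM in BM IMs and at 216, 379.9, 372, 393 and 265 CPM in LN TIMs (log2 fold change 6.08 ± 0.30 (SE), adjusted p = 6.47e-07). Abca1, which exports cholesterol, was at 1.59, 2.17 and 2.40 CPM and at 30.1, 27.1, 43.3, 37.1 and 42.5 CPM (log2 fold change 4.13 ± 0.28 (SE), adjusted p = 3.49e-06), and Pparg, a lipid-sensing nuclear receptor, at 1.75, 2.61 and 3.76 CPM and 28.9, 30.3, 24.6, 27.3 and 24.2 CPM (log2 fold change 3.32 ± 0.30 (SE), adjusted p = 2.24e-05). Insig1, which restrains cholesterol synthesis, also rose (log2 fold change 1.82 ± 0.15 (SE), adjusted p = 1.43e-05). The member that fell was Lpl, the lipoprotein lipase gene, at 54.3, 46.7 and 46.8 CPM and 11.5, 13.8, 13.9, 13.8 and 11.5 CPM (log2 fold change -1.93 ± 0.16 (SE), adjusted p = 1.19e-05). The fall of Mvd did not pass without BM IM replicate 1 or 2 or without LN TIM replicate 2, 3 or 5.

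Iron and NRF2 antioxidant genes rose in 8 of 18 members and fell in 1, with a median of 0.26. Fth1, the ferritin heavy chain, was at 2070.4, 1732 and 1577 CPM in BM IMs and at 6884, 6082, 5067, 4732 and 6554 CPM in LN TIMs (log2 fold change 1.71 ± 0.16 (SE), adjusted p = 3.36e-05), and the cystine transporter gene Slc7a11 at 6.98, 7.56 and 5.48 CPM and 33.5, 70.7, 32.4, 65.5 and 55 CPM (log2 fold change 2.95 ± 0.32 (SE), adjusted p = 8.26e-05). The iron exporter gene Slc40a1 fell, from 16.6, 25.3 and 51.4 CPM to 0.0363, 1.10, 0.594, 2.69 and 0.998 CPM (log2 fold change -4.85 ± 0.89 (SE), adjusted p = 0.00207), and the heme oxygenase gene Hmox1 did not pass (adjusted p = 0.42), although without LN TIM replicate 1 it did, at an adjusted p of 0.0189. Without LN TIM replicate 1 2 members fell, Gclc being the second (adjusted p = 0.0241), and 2 fell without BM IM replicate 3. Of the heat shock and unfolded protein genes 7 of 19 rose and 2 fell, with 5 that fell without LN TIM replicate 1 and 1 without any single other library but BM IM replicate 3. Hspa1a was at 8.22, 4.46 and 6.45 CPM and 160.2, 95.7, 118, 123 and 145 CPM (log2 fold change 4.33 ± 0.28 (SE), adjusted p = 2.64e-06), its near copy Hspa1b moved alike, and the chaperone gene Hspa5 of the endoplasmic reticulum rose (log2 fold change 1.25 ± 0.15 (SE), adjusted p = 0.000127).

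Lysosome genes rose in 8 of 19 tested members and fell in 3, with a median of 0.30, and without BM IM replicate 2 they rose in 5 and fell in 1. Ctss, a protease that processes antigen, was at 1793, 1541 and 1245 CPM in BM IMs and at 6362, 5359.7, 4056, 5271 and 5499.5 CPM in LN TIMs (log2 fold change 1.8 ± 0.17 (SE), adjusted p = 3.45e-05), and the protease gene Lgmn at 22.8, 19.97 and 33.3 CPM and 246, 267, 249, 265 and 316 CPM (log2 fold change 3.40 ± 0.21 (SE), adjusted p = 1.9e-06). Without BM IM replicate 1 they fell in 1. The rise of Psap, a sphingolipid activator, did not pass without BM IM replicate 1 or without BM IM replicate 2, at adjusted p values of 0.0579 and 0.0607. BCL2 family and death genes rose in 14 of 19 members and fell in 1, with a median of 1.0. The survival gene Bcl2a1b was at 2.03, 2.24 and 2.30 CPM and at 41.4, 53.7, 68.02, 33.3 and 47.1 CPM (log2 fold change 4.47 ± 0.29 (SE), adjusted p = 2.68e-06), though reads may be split with its copies Bcl2a1a and Bcl2a1d. Bcl2l11, which promotes death, rose too (log2 fold change 2.04 ± 0.18 (SE), adjusted p = 1.88e-05), and Bid, which links death receptors to mitochondria, fell (log2 fold change -1.01 ± 0.11 (SE), adjusted p = 7.8e-05).

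Outside the 30 lists, the DEGs with the largest rises at a mean log2 CPM above 3 included Dab2, an endocytic adaptor, at 0.330, 0.122 and 0.0715 CPM in BM IMs and 283, 158, 79.5, 156 and 163 CPM in LN TIMs (log2 fold change 9.95 ± 0.67 (SE), adjusted p = 3.49e-06). Slc4a11, an ion transporter, was at 0, 0.173 and 0.322 CPM and at 181, 132, 71.99, 164 and 188 CPM (log2 fold change 9.73 ± 0.80 (SE), adjusted p = 1.31e-05). The acute phase gene Saa3 (log2 fold change 8.75 ± 0.54 (SE), adjusted p = 2.18e-06), the uridine phosphorylase gene Upp1 (log2 fold change 8.69 ± 0.50 (SE), adjusted p = 1.43e-06), Ly6a, which encodes Sca-1 (log2 fold change 8.29 ± 0.30 (SE), adjusted p = 2.44e-07), the cytokine signal inhibitor gene Socs3 (log2 fold change 8.15 ± 0.39 (SE), adjusted p = 5.3e-07) and the small GTPase gene Rhov (log2 fold change 7.74 ± 0.44 (SE), adjusted p = 1.33e-06) completed this set together with members of the lists. Each was above the BM IM range in all 5 TIM libraries, which the rule that picked these genes required. On the falling side stood S100a9, a subunit of calprotectin, at 674, 593 and 857 CPM and 5.14, 17.9, 12.5, 2.16 and 5.50 CPM (log2 fold change -6.36 ± 0.61 (SE), adjusted p = 3.31e-05), and Stmn1, which destabilises microtubules (log2 fold change -6.43 ± 0.29 (SE), adjusted p = 4.34e-07), besides Rn45s and histone, replication and mitosis genes. Genes that took many reads in LN TIMs but did not pass were Tmsb4x, a thymosin, and the chitinase-like gene Chi3l3, which was at 3571, 3268 and 2897 CPM in BM IMs and at 8711, 3464, 3309, 2255 and 4705 CPM in LN TIMs, with replicate 1 above the other libraries (adjusted p = 0.363).

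Markers of other cell types moved with the group. Those of pDCs are given above with the presentation genes. Siglech, a pDC receptor, was at 0.341, 1.31 and 0.536 CPM in BM IMs and at 328, 245, 477, 131 and 37.1 CPM in LN TIMs, highest in replicate 3 and lowest in replicate 5 (log2 fold change 8.38 ± 1.02 (SE), adjusted p = 0.00016). T cell markers summed to 2.58 to 4.28 CPM and to 18.2 to 149 CPM, and this came from Cd4, Cd8a, Cd8b1 and Il7r, while Cd3e was at most 0.16 CPM and Cd3d at most 1.47 CPM in LN TIMs. Natural killer cell markers summed to 29.0 to 39.0 CPM and 145 to 198 CPM, nearly all of it Klrk1, and Ncr1 was at most 0.0119 CPM in LN TIMs. Plasma cell markers summed to 9.52 to 13.5 CPM and 195 to 369 CPM, led by Igj, Prdm1 and Sdc1. Red cell, squamous and lung epithelial sums in LN TIMs were 0 to 4.0, 3.90 to 32.5 and 110 to 162 CPM against 4.52 to 14.3, 0 to 0.0796 and 244 to 316 CPM in BM IMs. Of the 10 lung epithelial markers, only 3 passed the filter on low counts in this comparison, and 3 were at 0 in all LN TIM libraries.

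Neutrophil markers summed to 2636 to 3227 CPM in BM IMs and 1080 to 1883 CPM in LN TIMs, where Il1r2 rose (log2 fold change 6.26 ± 0.29 (SE), adjusted p = 4.8e-07) and S100a8 fell (log2 fold change -3.36 ± 0.41 (SE), adjusted p = 0.000169). Eosinophil, basophil and mast cell markers summed to 596 to 1175 CPM in BM IMs, to 223 CPM in LN TIM replicate 1 and to at most 15.6 CPM in the other LN TIM libraries. The eosinophil granule gene Prg2 was at 763, 416 and 858 CPM in BM IMs and had 1 count in 1 LN TIM library and none in the others (adjusted p = 4.35e-08), while Mcpt8, a basophil protease gene, was at 137, 10.2, 4.73, 8.50 and 3.41 CPM in LN TIMs. Of these 10 markers 4 fell, and without replicate 1 8 fell. Of the other marker lists, the resident macrophage list summed to 16.8 to 19.8 CPM and 30.7 to 100.1 CPM, with Siglec1 rising (log2 fold change 3.21 ± 0.48 (SE), adjusted p = 0.000559). Endothelial markers summed to 9.75 to 13.9 CPM and 55.5 to 112 CPM, most of it Pecam1, which monocytes also express. The part of any of these cells in the gene lists was not tested.

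**Figure D3:**
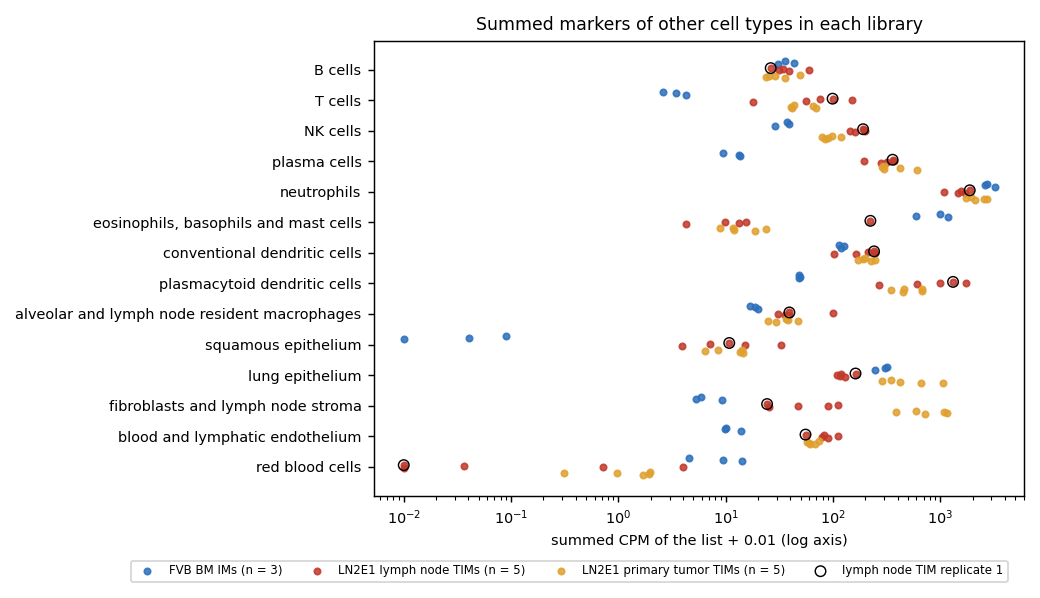
Summed level (CPM plus 0.01, log axis) of the markers of 14 other cell types in each library of BM IMs (n = 3, blue), LN TIMs (n = 5, red) and LN2E1 primary tumor TIMs (n = 5, yellow), with LN TIM replicate 1 circled. The pDC sum lies at 48.1 to 49.7 CPM in BM IMs and 270.4 to 1727 CPM in LN TIMs, and replicate 1 is apart from the other LN TIM libraries for eosinophil, basophil and mast cell markers at 223 CPM.

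To see where LN TIMs differed from the most alike group, they were tested against TIMs of the primary tumors of the same model. Of 13488 genes tested, 829 (6.15%) were higher and 749 (5.55%) lower in LN TIMs, while DESeq2 called 1223 higher and 1869 lower and a fit over all 5 groups 838 higher and 1359 lower. The total of 1578 was 2256 without LN TIM replicate 1, and it was 1036, 889 and 1023 without primary tumor TIM replicate 2, 4 or 5. MHC class I presentation genes were higher in 8 of 15 tested members, type I interferon response genes in 7 of 21, interferon gamma response genes in 6 of 16 and MHC class II presentation genes in 4 of 13, and no member of these 4 lists was lower. Irgm1 was at 1139.8, 1016, 905, 1212 and 1029 CPM in LN TIMs and at a mean of 514 CPM in primary tumor TIMs (log2 difference 1.06 ± 0.11 (SE), adjusted p = 0.000349). H2-K1 (log2 difference 0.44 ± 0.08 (SE), adjusted p = 0.00408), Cd274 (log2 difference 0.73 ± 0.12 (SE), adjusted p = 0.00408) and Isg15 (log2 difference 0.74 ± 0.15 (SE), adjusted p = 0.00833) were also higher. Spon1 was at a mean of 53.6 CPM in primary tumor TIMs and did not pass (log2 difference 0.05, adjusted p = 0.924).

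BCL2 family and death genes were higher in 7 of 19 members, respiratory chain genes in 8 of 25 (5 without LN TIM replicate 1), glycolysis and hypoxia response genes in 6 of 23 and lipid handling genes in 5 of 18. The 5 genes with the largest positive difference at a mean log2 CPM above 3 were L1cam, an adhesion molecule (log2 difference 1.70 ± 0.29 (SE), adjusted p = 0.00425), Cd36 (log2 difference 1.68 ± 0.24 (SE), adjusted p = 0.00196), the complement inhibitor gene Cd59a (log2 difference 1.6 ± 0.46 (SE), adjusted p = 0.0469), the ion cotransporter gene Slc12a2 (log2 difference 1.54 ± 0.25 (SE), adjusted p = 0.00365) and Eno3, an enolase (log2 difference 1.47 ± 0.23 (SE), adjusted p = 0.00328). Without LN TIM replicate 1 the difference of Cd59a did not pass, at an adjusted p of 0.0753. Cd36 was at 216, 379.9, 372, 393 and 265 CPM in LN TIMs and at a mean of 102 CPM in primary tumor TIMs. Immediate early genes were lower in 8 of 17 members and higher in 1, Nr4a2, and matrix, protease and coagulation genes were lower in 7 of 22 and higher in 1, Plaur. Mitosis genes were lower in 5 of 18 members, secondary and tertiary granule genes in 3 of 8, chemokine ligand genes in 4 of 20 and growth factor and TGF-beta genes in 3 of 16 (5 without LN TIM replicate 1), and none of these lists had a higher member. No ribosomal protein gene passed in either direction. Fos was at a mean of 4706 CPM in primary tumor TIMs (log2 difference -1.33 ± 0.12 (SE), adjusted p = 0.000167).

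The 5 genes with the largest negative difference were Clu (log2 difference -5.32 ± 0.91 (SE), adjusted p = 0.00423), the collagen genes Col6a1 (log2 difference -4.88 ± 0.54 (SE), adjusted p = 0.000488), Col3a1 (log2 difference -4.32 ± 1.02 (SE), adjusted p = 0.0193) and Col1a2 (log2 difference -4.27 ± 1.22 (SE), adjusted p = 0.0441) and the matrix metalloproteinase gene Mmp2 (log2 difference -4.49 ± 0.87 (SE), adjusted p = 0.00735). Col3a1 was at 0.727, 41, 6.64, 43.4 and 1.41 CPM in LN TIMs and at a mean of 375 CPM in primary tumor TIMs. Fibroblast and stroma markers moved with these genes and include 2 of them, at 24.3 to 112 CPM in LN TIMs and 386 to 1147 CPM in primary tumor TIMs, as did lung epithelial markers, at 110 to 162 CPM and 287 to 1059 CPM. Their part in the differences was not tested. Spp1, at a mean of 718 CPM in primary tumor TIMs, was lower in LN TIMs (log2 difference -2.50 ± 0.22 (SE), adjusted p = 0.000167).

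**Figure D4:**
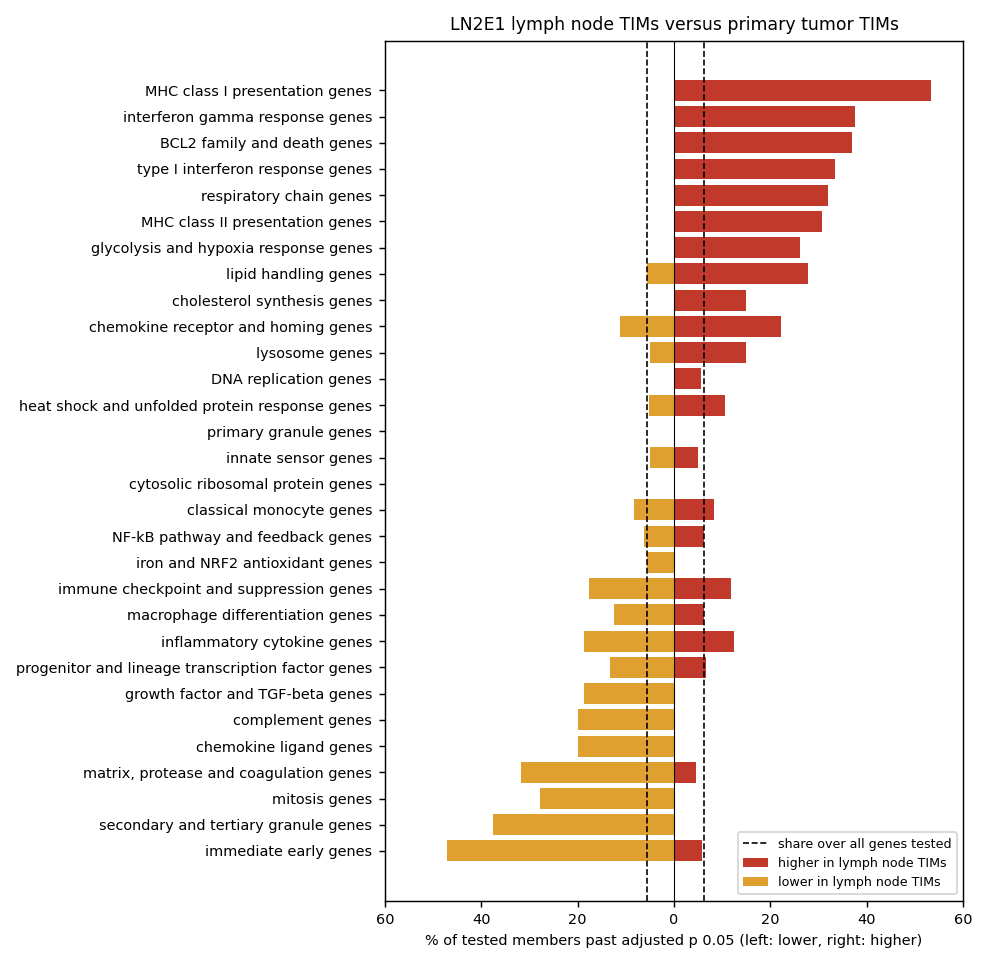
Percent of the tested members of each of 30 gene lists that were higher (red, right) or lower (yellow, left) in LN TIMs (n = 5) than in LN2E1 primary tumor TIMs (n = 5) at an adjusted p under 0.05, with dashed lines at the shares of all genes tested (6.15% and 5.55%). MHC class I presentation genes reach furthest to the right, with 8 of 15 members higher, and immediate early genes furthest to the left, with 8 of 17 members lower.

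The distinct list members that rose relative to BM IMs and were also tested against primary tumor TIMs numbered 264. Of these, 60 were also higher and 23 lower in LN TIMs than in primary tumor TIMs. Of the 89 that fell and were tested there, 1 was higher and 15 were lower. Over all genes tested in that comparison, 6.15% were higher and 5.55% lower. The same 5 LN TIM libraries enter both comparisons.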

How the data were processed

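RNA of sorted IMs was amplified (SMARTer Ultra Low, Nextera XT; not stranded) and sequenced. Per the labels and the study's methods, the authors trimmed reads with BBDuk, aligned them with BBMap to mm10 and counted them per gene with featureCounts (1.5.2 in the submitters' processing notes, which also name SAMtools 1.8), and the deposited values were raw counts for 23420 gene symbols. The counting settings and annotation are not given in the sources used here.

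Groups followed the labels. Genes that passed filterByExpr (minimum count 10, total 15) were TMM-normalized and tested with edgeR's quasi-likelihood test (edgeR 4.0.16, R 4.3.3) with Benjamini-Hochberg adjustment over all genes tested, once over the 8 libraries of LN TIMs and BM IMs and once over the 10 of LN TIMs and primary tumor TIMs. The DEG thresholds had the same numbers as those of the study. It applied them to DESeq2 p-values and shrunken fold changes, and here they were applied to edgeR values without that shrinkage. Log2 CPM used a prior count of 2. A group with no counts was set at 3 counts per library (0.0268 to 0.0397 CPM, counting error only) for a bound on the fold, and the medians of the 30 lists were the same with such genes at their bound. Alternatives were DESeq2 1.42.0, its size factors, other filters, a fit over 5 groups, a replicate block and leaving out each library. The fits were tested on simulated counts.

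The comparison and the lists were chosen with earlier results of these data known. By rule, the genes named were the 15 DEGs with the largest rise and the 15 with the largest fall at a mean log2 CPM above 3 without overlap, the highest-level members and the DEGs of each list, the sort markers, the 10 genes with the most reads in LN TIMs, the 5 genes at each end of the comparison with primary tumor TIMs, and Spon1. Other list members, and the choice among those named, are examples picked after their values were seen. Of 670 located genes, 151 had an exon of another gene on the opposite strand in the GRCm38 annotation, among them Cd274, Cxcl10, Icam1, Irf7, Junb, Prtn3, Tap1, Tgm2 and Ube2c, and reads of both genes cannot be told apart. Promoters came from RefSeq tables. Some genes of the lists and of this rule are not reported here by name.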

Additional observations from a re-analysis of the deposited data

Results flagged for a closer look

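In LN TIMs, 1 library lay far from the other 4 for 14 of 199 named genes (7.0%), 6 of 45 summed lists (13.3%) and 2 of 3 library measures, where the gap to the nearest library exceeded 0.71 of the group's range. Chance alone passes this limit in about 1 in 20 groups.

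Replicate 1 was the highest library for Mpo (31.8 CPM against 0.0265 to 1.94), Prtn3 (28.5 against 11.1 to 15.7), Birc5 (9.96 against 0.689 to 2.19), Cdk1 (2.79 against 0.888 to 1.43), Ccl9 (1023 against 684 to 777) and Camp (0.0242, the others being at 0). It was also highest for the sum of primary granule genes (103 CPM against 17.0 to 23.1) and the sum of eosinophil, basophil and mast cell markers (223 against 4.23 to 15.6). It had the fewest genes with at least 10 counts, 11047, and the most tested genes at 0 counts, 1891.

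Replicate 3 was the lowest library for Rhov (107 CPM against 216 to 245), Tnf (34.9 against 44.2 to 47.4), Mmp14 (47.9 against 67.3 to 75.1) and the sum of checkpoint and suppression genes (6219 against 7991 to 8580). It was the highest for Itgax (131 against 59.8 to 75.7), the replication helicase gene Mcm6 (24.0 against 2.80 to 8.07) and the sum of red cell markers (4.0 against 0 to 0.714). Replicate 2 was the highest for the granule gene Ngp (14.9 CPM against 0 to 0.0485) and for the sum of resident macrophage markers (100.1 against 30.7 to 39.3). Replicate 4 was the lowest for Rps3 (254 against 320.3 to 346), and replicate 5 was the highest for Tgfbi (1966 against 1486 to 1608) and the lowest for the sum of lysosome genes (25439 against 26666 to 27041).

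The direct edgeR test of LN TIMs against primary tumor TIMs, whose groups differ in site within the same model, picked out the 5 genes at each end. The log2 differences were 1.70 for L1cam, 1.68 for Cd36, 1.6 for Cd59a, 1.54 for Slc12a2 and 1.47 for Eno3, and -5.32 for Clu, -4.88 for Col6a1, -4.49 for Mmp2, -4.32 for Col3a1 and -4.27 for Col1a2.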

How the results depend on the processing

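The 4969 genes that rose or fell stayed within 1.5 times of that count under each alternative (3566 to 6599, and 3369 to 6040 with 1 library left out). The 758 DEGs varied more in number, and the cause was not tested. They were 754 with DESeq2 size factors, 913 with no filter and 1006 with a strict filter, but 1947 with 5 groups in 1 fit, 2419 with DESeq2, 2402 with its shrunken fold changes and 307 to 977 with 1 library left out. The 1578 genes that differed from primary tumor TIMs were 3092 with DESeq2 and 889 to 2256 with 1 library left out.

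With the replicate block, 0 DEGs remained among 3566 genes past an adjusted p of 0.05, and 533 genes differed from primary tumor TIMs. Same-numbered LN TIM and BM IM libraries deviated together at correlations of 0.096, 0.014 and 0.087, each the highest for its LN TIM library. Same-numbered LN TIM and primary tumor TIM libraries did so at -0.030, 0.065, -0.174, 0.043 and -0.046. The sources used here do not say that the numbers pair samples, so they were used as names only. Whether they mark a shared factor was not tested.

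Of 199 named genes, direction and side of the threshold were kept by 199 with size factors, 196 with DESeq2, 195 with 5 groups and 192 with the block. Signs turned only for genes that had not passed: with the block Gsr (-0.063) and Tmsb4x (0.10), and with 1 library left out Dusp1 (-0.014 to 0.48), Ftl1 (-0.0046 to 0.16), Gsr (-0.092 to 0.10), Mmp8 (-0.28 to 0.086), Osm (-0.23 to 0.0039) and Tmsb4x (-0.20 to 0.0080). The cause of these shifts was not tested. Genes below about 0.04 CPM were beyond the depth.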
